A study of Mus musculus with 9 samples.

Results

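The genes described here are 10 members of the NF-κB system. They are the subunit genes Nfkb1, Nfkb2, Rel and Relb, the inhibitor genes Nfkbia, Nfkbie, Nfkbiz and Bcl3, and the feedback inhibitor genes Tnfaip3 and Tnip1. They were taken by symbol from a table of RNA-seq read counts that holds 24061 gene symbols, and the rows of one symbol were summed. The mRNA came from bone-marrow-derived macrophages (BMDMs), primary macrophages grown from the marrow of adult female C57BL/6J mice. All cells were differentiated for 7 days and deprived of serum for 1 day before treatment. The vehicle group (Veh) received DMSO and no LPS, and the sources used here do not give the hour of its harvest. The LPS group received DMSO for 3 hr and then 10 ng/mL lipopolysaccharide (LPS), the bacterial ligand of the receptor TLR4, for 2 hr. The T0+LPS group received 500 nM of T0901317 (T0), an agonist of the nuclear receptor LXR, in place of DMSO for 3 hr before the same LPS stimulation. Each group had 3 libraries, which per the study's methods came from individually differentiated cultures. The comparison of LPS with Veh asks how the stimulus changed the mRNA of each member, and the comparison of T0+LPS with LPS asks whether the LXR agonist changed that response. Both comparisons use the same LPS libraries.

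NF-κB is a family of dimeric transcription factors that IκB proteins hold inactive in the cytoplasm. TLR4 signalling activates the IκB kinase complex, IκB proteins are degraded, and the released dimers enter the nucleus and induce inflammatory genes. Several genes of the system are themselves NF-κB targets in macrophages, so newly made IκB and the ubiquitin-editing protein A20 act back on the pathway.

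Because these genes are known to be controlled by NF-κB, the promoters of the members were searched for the κB consensus, a motif of 10 letters, on both strands. RefSeq promoter sequences of mm10 were present for 7 members with 10 start sites, each with 250 bases before and 50 bases after the start. The entry was missing for Nfkb1, Relb and Nfkbiz. A match lay before the start in 8 of 10 member promoters, or in 6 of the 7 member genes. The same search found a match before the start in 1281 of all 32851 promoters, or 3.90%, and in 1204 of 27025 genes, or 4.46%. The stretches that hold the matches are printed here 5′ to 3′ on the strand of the gene, from RefSeq in mm10, with every base of a match in capitals. They show 1 start for each of the 6 genes with a match before a start.
Nfkbia, chr12:55492648-55492696, minus strand: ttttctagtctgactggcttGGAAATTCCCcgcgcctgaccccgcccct
Nfkbie, chr17:45555574-45555623, plus strand: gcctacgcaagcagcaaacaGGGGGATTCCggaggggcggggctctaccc
Rel, chr11:23771031-23771081, minus strand: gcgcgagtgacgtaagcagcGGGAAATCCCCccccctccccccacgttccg
Nfkb2, chr19:46304678-46304736, plus strand: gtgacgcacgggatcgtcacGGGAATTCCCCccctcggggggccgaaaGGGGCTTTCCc
Tnfaip3, chr10:19015411-19015555, minus strand: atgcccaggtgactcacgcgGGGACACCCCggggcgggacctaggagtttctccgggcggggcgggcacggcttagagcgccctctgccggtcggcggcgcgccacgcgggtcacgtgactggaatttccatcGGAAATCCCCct
Tnip1, chr11:54962967-54963018, minus strand: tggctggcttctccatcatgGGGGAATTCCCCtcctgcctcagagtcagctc

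Counted from the start, with -1 as the base just before it, the match of Nfkbia ran from -29 to -20 and that of Nfkbie from -106 to -97. Distances are from the start of the promoter entry. For Nfkbie that is 45555700, whereas the transcript given below starts at 45555716, and for Rel it is 23770969 against 23770970. Rel and Tnip1 each held overlapping matches, from -92 to -82 and from -58 to -47. The first start of Nfkb2 had overlapping matches from -39 to -29 and a separate one from -11 to -2. Its other starts, at positions 46305695 and 46305930, held a match from -236 to -227 and from -225 to -216, and these are not printed. Tnfaip3 had 2 separate matches at its distal start, from -125 to -116 and from -12 to -3, and none at its second start, position 19011963. Of all promoters, 0.493% held 2 or more matches, overlapping ones included. In Bcl3 the only match, GGGAAGTCCC on the opposite strand, lay after the start, from +3 to +12. A match is a string of letters and does not show that a factor bound there, and no binding was measured here.

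**Figure D1:**
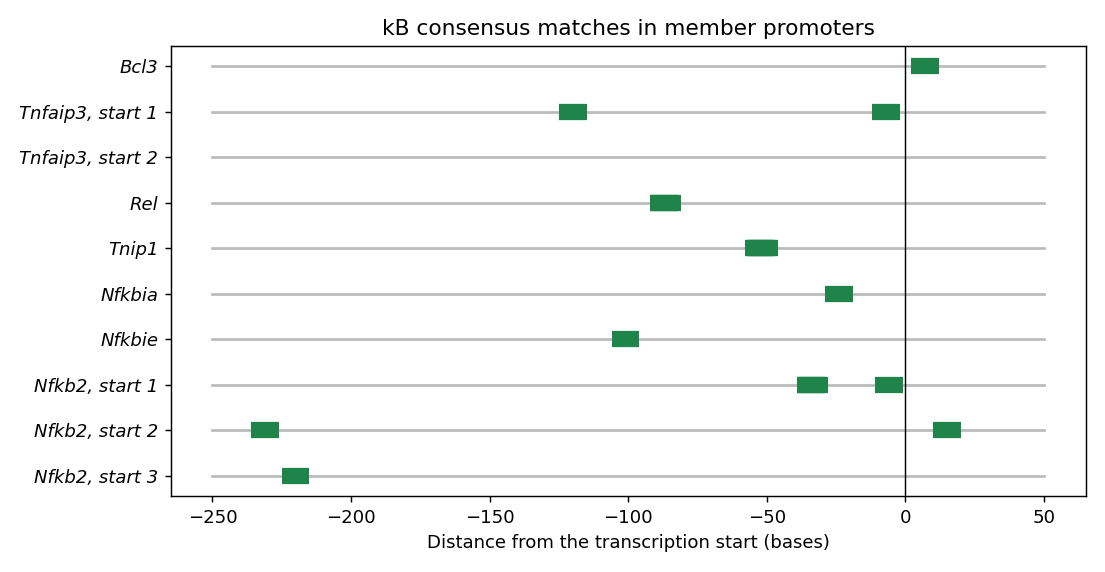
Position of matches to the κB consensus on either strand in the RefSeq promoters of 7 members, one line per start site. The x axis is the distance from the transcription start in bases, the gray line is the window searched and each green box is a match. 8 of the 10 windows hold a box to the left of the start, and the second start of Tnfaip3 holds none.

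How well each member could be measured depended on its number of annotated transcripts. The table has a row for each RefSeq transcript, and a read on a base that belongs to more than 1 row was not counted: 6696 rows with no base of their own held 0 reads. Nfkb1, Rel, Nfkbie and Bcl3 have 1 row and were counted on all of their exon bases, and Nfkbia was counted on 99.1% of them. These members held between 18232 reads (Bcl3) and 125037 reads (Nfkbia) over the 9 libraries. The other 5 members were counted on what their transcripts do not share. Nfkb2 had 322 such bases and 326 reads, Tnfaip3 431 bases and 1852 reads, Tnip1 158 bases and 48 reads, Nfkbiz 23 bases and 32 reads, and Relb 6 bases and 1 read. None of these bases is coding in the GENCODE annotation of the same build. The values of these 5 members are therefore those of particular noncoding exon stretches, and they are uncertain as levels of the whole gene. Relb, Nfkbiz and Tnip1 did not pass the filter on low counts, which left 7 of 10 members to be tested.

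**Figure D2:**
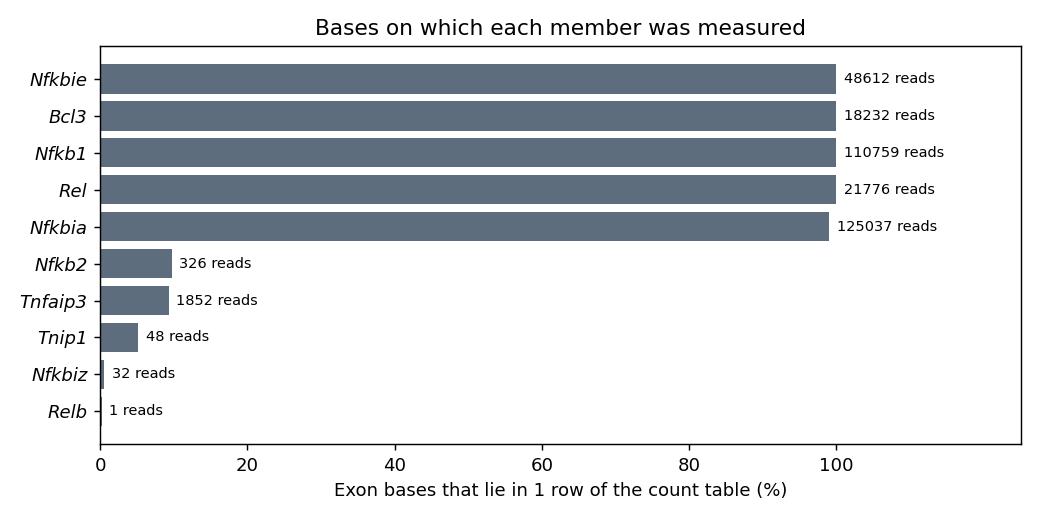
Percent of each member's exon bases that lie in 1 row of the count table and so could be counted, with the reads counted over the 9 libraries beside each bar. 5 members were counted on 99.1% to 100% of their bases and the other 5 on less than 10% of them.

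The libraries held between 13299044 and 16467983 counted reads. The factors that correct for library composition (TMM) were 1.14 in all Veh libraries and 0.931 to 0.948 in the other 6. The chi-square of any library pair of one group, divided by its degrees of freedom, lay from 2.58 to 6.52, above sampling noise, and all 9 were used as separate samples. Of 7 macrophage markers in the table, 6 were above 1 CPM in every group and Itgam was at 0 reads in all libraries. Their summed level ranged from 24729 to 26956 CPM in Veh, from 29389 to 30965 CPM in LPS and from 31997 to 33508 CPM in T0+LPS, and the part of this in the results was not tested. The lists for neutrophils, dendritic cells, T cells, B cells and stromal cells each summed to at most 3.93 CPM in any library, with Cd3e, Cd8a, Pax5, Dcn, Pdgfra and S100a9 at 0 in every group. In these lists Cd4, S100a8 and Xcr1 had a group mean above 1 CPM. In Veh, LPS and T0+LPS, Cd4 was at 3.12, 2.16 and 2.25 CPM, S100a8 at 0.987, 2.28 and 1.62 CPM, and Xcr1 at 0.248, 1.79 and 2.13 CPM. A value of 0, as for Itgam or S100a9, can also mean that none of a gene's rows has a base of its own. This was not checked for the markers. In such bulk RNA, fewer cells of a type and less RNA per cell cannot be told apart. All 6 LXR target genes fixed as a check of T0 were called higher in T0+LPS than in LPS, with a median log2 fold change of 1.39. Scd2, a fatty acid desaturase, had a log2 fold change of 3.92, the sterol transporters Abcg1 and Abca1 2.09 and 1.47, and the lipogenic regulator Srebf1 1.30.

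LPS raised the 5 members that could be counted well, and the stimulated groups were also the higher ones for the other 2 that were tested. The 5 members counted on nearly all of their bases were above the filter level in every library of each group, and each was called higher in LPS than in Veh, as were 32.9% of the 9559 genes tested. Nfkb2 and Tnfaip3 were also called higher, but Tnfaip3 was below the filter level in all 3 Veh libraries and Nfkb2 in 1 of them. Both therefore needed the groups where they were high to enter the test. No member was called lower, against 31.2% of all genes. In each of the 5 well-counted members, the 3 LPS libraries lay above the 3 Veh libraries, which held for 33.6% of genes. The median log2 fold change of all genes was -0.00, and the values of the 5 members ranged from 2.92 to 4.999. Below, levels are read counts scaled to library size and TMM factor (CPM), SD is over 3 libraries, and adjusted p-values are Benjamini-Hochberg values over all genes tested, from the quasi-likelihood test of edgeR.

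Among the subunits, Nfkb1 encodes p105, the precursor of p50. It lies on chromosome 3 of mm10 from 135584655 to 135691547, minus strand, with 25 exons. Its level was 174, 173 and 166 CPM in the 3 Veh libraries, 1293, 1274 and 1319 CPM in LPS, and 1220.4, 1218 and 1220.2 CPM in T0+LPS. The LPS libraries were the highest, the T0+LPS libraries lay just beneath them without overlap, and the Veh libraries were far below both. The means were 171 ± 4.37 CPM (SD, n = 3) in Veh, 1295 ± 22.7 CPM in LPS and 1219 ± 1.56 CPM in T0+LPS. LPS against Veh gave a log2 fold change of 2.92 (standard error 0.04, edgeR adjusted p = 3.7e-18).

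Rel encodes c-Rel, a transactivating subunit prominent in blood cells. It lies on chromosome 11 from 23741729 to 23770970, minus strand, with 10 exons. Its level was 28.8, 30.3 and 29.8 CPM in Veh, 263, 238 and 281 CPM in LPS, and 225, 245 and 245 CPM in T0+LPS. The T0+LPS libraries overlapped the LPS libraries, and the spread was larger than for Nfkb1. LPS raised Rel by 3.14 on the log2 scale (standard error 0.06, edgeR adjusted p = 2.0e-16), from 29.6 ± 0.782 to 261 ± 21.7 CPM (SD, n = 3).

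Nfkb2 encodes p100, the precursor of p52 in the noncanonical pathway, and lies on chromosome 19 from 46304737 to 46312090, plus strand. On its 322 countable bases it had 10, 18 and 20 reads in Veh, 37, 44 and 32 in LPS, and 50, 64 and 51 in T0+LPS. As CPM these were 0.535, 1.19 and 1.16 in Veh, 2.93, 3.20 and 2.47 in LPS, and 3.81, 4.46 and 3.54 in T0+LPS. It was the one member whose T0+LPS libraries all lay above the LPS libraries. Its log2 fold change in LPS against Veh was 1.60 (standard error 0.27, edgeR adjusted p = 7.8e-05). This p is a description, since Nfkb2 passed the filter only with the LPS libraries, where it was high. The reads came almost entirely from stretches annotated as the first exons of 2 transcripts. The second lies inside the span of the first transcript, so its reads could also be unspliced RNA of that transcript. The shares below therefore do not measure the use of each start. The exon at position 46304737, whose promoter is printed above, had 36 reads in Veh, 68 in LPS and 93 in T0+LPS. The exon at position 46305695 had 12, 45 and 71. The first of these gave 75.0% of the reads in Veh (exact Clopper-Pearson 95% interval 60.4 to 86.4), 60.2% in LPS (50.5 to 69.3) and 56.7% in T0+LPS (48.8 to 64.4), and these intervals overlap.

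Relb, which encodes the main partner of p52, lies on chromosome 7 from 19606222 to 19629438, minus strand. It had 1 read, in an LPS library, on its 6 countable bases, so its expression was not measurable at this depth.

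Among the inhibitors, Nfkbia encodes IκBα, which is degraded within minutes of TLR4 signalling and resynthesised as a target of NF-κB. It lies on chromosome 12 from 55489409 to 55492647, minus strand, with 6 exons. Its level was 50.5, 49.1 and 53.8 CPM in Veh, 1619.6, 1633 and 1489 CPM in LPS, and 1369.6, 1466 and 1471 CPM in T0+LPS. The highest T0+LPS library was just below the lowest LPS library. LPS raised Nfkbia by 4.95 on the log2 scale (standard error 0.06, edgeR adjusted p = 1.7e-19), from 51.1 ± 2.37 to 1581 ± 79.6 CPM (SD, n = 3).

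Nfkbie encodes IκBε, a further cytoplasmic inhibitor that is induced by NF-κB. It lies on chromosome 17 from 45555716 to 45563168, plus strand, with 6 exons. Its level was 19.1, 18.8 and 19.1 CPM in Veh, 620.4, 611 and 592 CPM in LPS, and 549, 570.4 and 578 CPM in T0+LPS. Its Veh libraries had the smallest SD of the 5 well-counted members, also relative to the mean, and the T0+LPS libraries all lay below the LPS libraries. With a log2 fold change of 4.999 (standard error 0.05, edgeR adjusted p = 7.4e-20), Nfkbie had the largest change of the 5 well-counted members, and its interval overlapped that of Nfkbia (4.89 to 5.11 against 4.83 to 5.07).

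Bcl3 encodes an atypical nuclear IκB protein that binds p50 and p52 dimers. It lies on chromosome 7 from 19808462 to 19822755, minus strand, with 9 exons. Its level was 15.6, 14.6 and 14.8 CPM in Veh, 235, 217 and 229 CPM in LPS, and 189, 209.9 and 211 CPM in T0+LPS. The lowest T0+LPS library stood apart from the other two, and all 3 lay below the LPS libraries. Its log2 fold change in LPS against Veh was 3.92 (standard error 0.06, edgeR adjusted p = 4.5e-18), from 15.0 ± 0.525 to 227 ± 9.04 CPM (SD, n = 3).

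Nfkbiz encodes IκBζ, a nuclear IκB protein needed for a secondary set of LPS-induced genes, and lies on chromosome 16 from 55811377 to 55838641, minus strand. On its 23 countable bases it had 0 reads in all Veh libraries, 6, 4 and 5 reads in LPS, and 3, 6 and 8 reads in T0+LPS. These bases are the 5′ end of a transcript that starts at position 55822138, inside the span of the longer transcripts. RNA from that start and unspliced RNA of the longer transcripts cannot be told apart by these reads. Summed over the group, LPS was at least 6.50-fold and T0+LPS at least 6.91-fold higher than the limit that 0 reads allow in Veh, taken as 3 counts over the group, with the 15 and 17 reads of the stimulated groups taken as counted. With the counting error of both groups, the 95% interval of the ratio of LPS to Veh started at 4.66. The ratio of T0+LPS to LPS was 1.06 (95% counting interval 0.499 to 2.28). The small number of reads allows a difference in either direction.

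The feedback inhibitor gene Tnfaip3 encodes A20, an enzyme that removes and adds ubiquitin chains on signalling proteins upstream of IκB kinase. It lies on chromosome 10 from 19000910 to 19015410, minus strand. Its level was 0.481, 0.595 and 0.290 CPM in Veh, 25.4, 25.2 and 25.2 CPM in LPS, and 16.6, 21.0 and 22.0 CPM in T0+LPS. The LPS libraries were nearly identical, whereas the T0+LPS libraries were spread out and all below them. The log2 fold change of LPS against Veh was 5.79 (standard error 0.16, edgeR adjusted p = 9.0e-15). This p is a description, since Tnfaip3 passed the filter only through the stimulated groups and so had to differ. The means went from 0.455 ± 0.154 to 25.3 ± 0.152 CPM (SD, n = 3). Reads fell on both stretches annotated as first exons. The second, of 173 bases, lies inside the span of the distal transcript, after its first exon. A start there and unspliced RNA from the distal start cannot be told apart by these reads. The distal one, whose promoter is printed above, had 23 reads in Veh, 879 in LPS and 740 in T0+LPS, a 49.7-fold higher CPM in LPS than in Veh. The other, with no κB match before its start, had 0, 114 and 96 reads, which is at least 49.4-fold above the limit of 3 counts over the Veh group in LPS and at least 39.0-fold in T0+LPS, with the 114 and 96 reads taken as counted. The distal exon gave 88.5% of these reads in LPS (exact Clopper-Pearson 95% interval 86.4 to 90.4) and 88.5% in T0+LPS (86.2 to 90.6). Intervals and limits of this kind cover counting error only.

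Tnip1 encodes ABIN1, a ubiquitin-binding partner of A20, and lies on chromosome 11 from 54910787 to 54962940, minus strand. On 158 countable bases it had 1, 4 and 2 reads in Veh, 8, 4 and 11 in LPS, and 3, 6 and 9 in T0+LPS. These bases, from 54956021 to 54956178, belong to 1 transcript and lie inside the span of the others. Their reads could therefore also be unspliced RNA of the other transcripts. Read by read the groups touch or overlap. Summed over the group the ratio of LPS to Veh was 4.27 (95% counting interval 1.77 to 11.8), and that of T0+LPS to LPS was 0.734 (0.373 to 1.42).

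**Figure D3:**
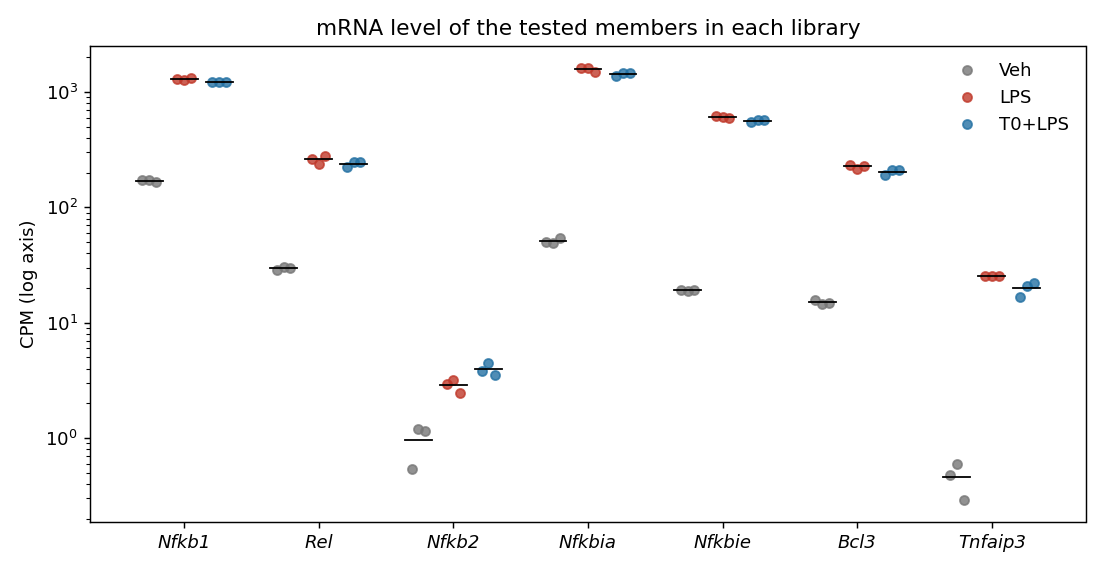
CPM (log axis) of the 7 tested members in each of the 9 libraries, with points for libraries, black lines for group means and colors for Veh, LPS and T0+LPS. For every member the 3 Veh libraries lie below the other 6, and the LPS and T0+LPS libraries lie close together, with Tnfaip3 at 25.3 and 19.8 CPM as the widest relative gap downward.

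Levels of different members can be set side by side for the 5 with full coverage, as CPM per kilobase of countable exon. In Veh, Nfkb1 was the highest at 41.6 ± 1.06 (SD, n = 3), followed by Nfkbia at 32.7 ± 1.52 and Rel at 11.5 ± 0.303. Bcl3 (8.18 ± 0.286) and Nfkbie (7.86 ± 0.0676) came last and differed by little more than their spread. In LPS the order of these levels was Nfkbia at 1011 ± 50.9, Nfkb1 at 315 ± 5.50, Nfkbie at 251 ± 5.92, Bcl3 at 124 ± 4.93 and Rel at 101 ± 8.40, with no overlap between neighbors. The same order held in T0+LPS, with 918 ± 36.5 for Nfkbia, 296 ± 0.379 for Nfkb1, 234 ± 6.13 for Nfkbie, 111 ± 6.70 for Bcl3 and 92.4 ± 4.50 for Rel.

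The balance of these mRNAs thus differed between resting and stimulated cells. Nfkb1 made up 40.8% of the summed level of these 5 genes in Veh, 17.5% in LPS and 17.9% in T0+LPS. Nfkbia made up 32.1%, 56.1% and 55.6%. Per kilobase, the ratio of Nfkbia to Nfkb1 was 0.788 ± 0.0568 (SD, n = 3) in Veh, 3.22 ± 0.214 in LPS and 3.10 ± 0.125 in T0+LPS, so IκBα mRNA went from below to above that of the subunit. The ratio of Nfkbie to Nfkb1 was 0.189 ± 0.00578, 0.799 ± 0.0302 and 0.789 ± 0.0210. The ratio of Nfkb1 to Rel was 3.63 ± 0.152 in Veh, 3.13 ± 0.211 in LPS and 3.21 ± 0.163 in T0+LPS, and that of Nfkbia to Nfkbie was 4.16 ± 0.171, 4.02 ± 0.124 and 3.93 ± 0.0607. All of these ratios overlapped between LPS and T0+LPS. A two-sided exact permutation test of 3 against 3 libraries cannot go below p = 0.1, so the ratios are given without a test.

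T0 left most of the LPS response of the members in place. No member was called in T0+LPS against LPS in the main edgeR fit, or by DESeq2 or limma-voom. DESeq2 gave no adjusted p for Nfkb2. Some other edgeR settings, given below, called Tnfaip3 or Nfkbia lower. Of the 9348 genes tested, 1.35% were called higher and 1.83% lower. The means of 6 of the 7 tested members were lower in T0+LPS, Nfkb2 being the exception, and their median log2 fold change was -0.13 against 0.00 over all genes. In 5 members, Nfkb1, Nfkbia, Nfkbie, Bcl3 and Tnfaip3, all T0+LPS libraries were below all LPS libraries, which held for 9.62% of genes. For Nfkb2 all were above, as for 9.51% of genes. All 7 had an unadjusted p under 0.05, against 13.9% of genes, and none passed after adjustment. The 7 values come from the same 6 libraries and are not independent of each other.

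The intervals show how large a difference these data allow. Nfkb1 had a log2 fold change of -0.09 (95% interval -0.17 to -0.00, edgeR adjusted p = 0.35), and 93.3% of its LPS-induced rise in mean CPM was left with T0. Rel had -0.13 (-0.26 to -0.00, edgeR adjusted p = 0.36) with 90.3% of the rise left. The Rel value was -0.07 without LPS replicate 3 and -0.19 without LPS replicate 2, neither called. For Nfkbie the value was -0.10 (-0.19 to -0.01, edgeR adjusted p = 0.28) with 92.9% left, and for Bcl3 -0.16 (-0.27 to -0.04, edgeR adjusted p = 0.16) with 89.0% left. These members thus stood between 5.85% (Nfkb1) and 10.3% (Bcl3) below their LPS mean.

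Nfkbia differed by -0.14 on the log2 scale (95% interval -0.24 to -0.04, edgeR adjusted p = 0.17), and 90.5% of its rise was left. It was called lower in one alternative, without LPS replicate 3, at -0.18 (edgeR adjusted p = 0.029). That library was the lowest of the LPS group for Nfkbia. Tnfaip3 had the largest difference downward among the tested members, -0.34 (-0.55 to -0.14, edgeR adjusted p = 0.070), from 25.3 ± 0.152 to 19.8 ± 2.86 CPM (SD, n = 3), with 78.1% of its rise left. Without the filter on low counts, Tnfaip3 was called lower at -0.34 (edgeR adjusted p = 0.0078). That fit also called more genes in all, 225 higher and 285 lower, against 126 and 171 in the main fit. Nfkb2 had a log2 fold change of 0.45 (0.05 to 0.86, edgeR adjusted p = 0.28) on few reads, from 2.87 ± 0.370 to 3.93 ± 0.473 CPM. T0+LPS replicate 1 was the lowest library of its group for Rel, Nfkbia, Nfkbie, Bcl3 and Tnfaip3. Without it their values were -0.09, -0.10, -0.08, -0.11 and -0.23, none called. Nfkb1 and Nfkb2 were then at -0.09 and 0.48.

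**Figure D4:**
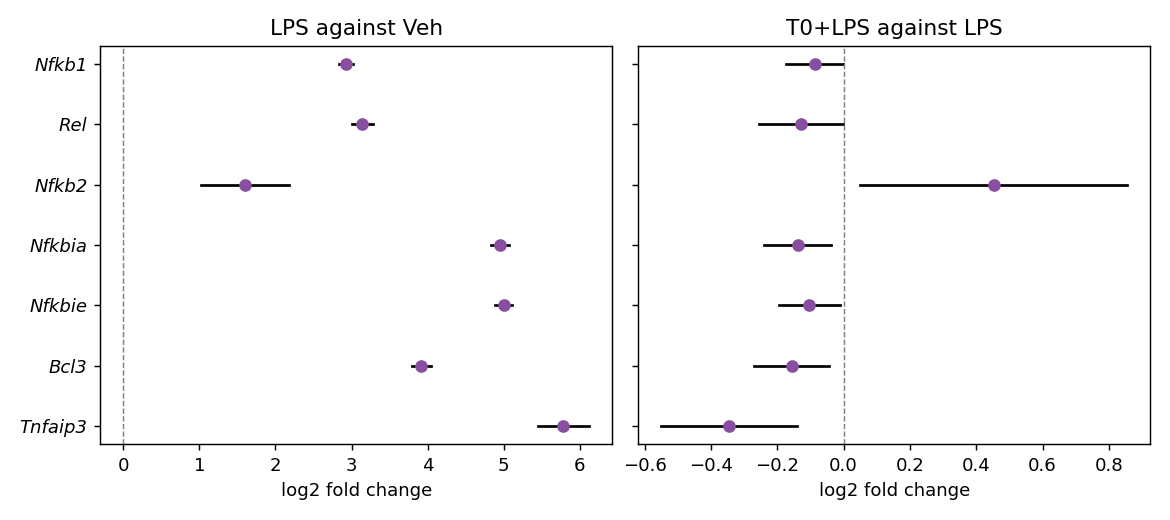
log2 fold change of the 7 tested members with 95% intervals from edgeR, for LPS against Veh (left) and T0+LPS against LPS (right, a narrower axis). On the left all points lie between 1.60 and 5.79, and on the right they lie between -0.34 and 0.45 with none called.

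Other genes of the pathway, a list of 32 that holds the kinases, adaptors and ubiquitin enzymes, moved less uniformly with LPS. Of the 27 tested, 19 were called higher, 5 lower and 3 did not pass, with a median log2 fold change of 0.57. Over all genes tested 32.9% were called higher and 31.2% lower, with a median of -0.00. Chuk, Ikbkg, Map3k7, Traf2 and Cyld, which have several rows each, were not tested. The largest change was in Traf1, a TNF receptor adaptor, at 4.17 (standard error 0.07, edgeR adjusted p = 1.5e-17), from 11.3 ± 0.568 to 204 ± 13.9 CPM (SD, n = 3). Tnip3, a relative of Tnip1, followed at 2.95, then the ubiquitin ligase gene Birc3 at 2.70, the IκBβ gene Nfkbib at 2.59 and the adaptor gene Traf3, measured on 261 reads over the 9 libraries, at 2.07. Rela, the gene of the p65 subunit, was singled out after its values were seen, as the usual partner of p50. It rose with LPS by 1.78 on the log2 scale, from 174 ± 2.36 to 597 ± 9.66 CPM (SD, n = 3), and in T0+LPS it was at 577 ± 7.62 CPM, a log2 fold change of -0.05 (edgeR adjusted p = 0.68).

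In T0+LPS against LPS, Traf5 was the only gene of this list called, among the 27 tested. Over all genes 1.35% were called higher and 1.83% lower, so 1 gene of 27 is near that background. Traf5, an adaptor of TNF receptor family members, fell by 0.43 on the log2 scale (standard error 0.09, edgeR adjusted p = 0.012), from 34.9 ± 4.30 to 25.9 ± 1.05 CPM (SD, n = 3). The median of the list was -0.03. For a list of 18 inflammatory NF-κB target genes outside the pathway, 16 were tested. All 16 were called higher with LPS at a median of 7.10, against 32.9% of all genes called higher. Among them Il12b, Tnf, Nos2, Il6 and Vcam1 had Veh means of only 0.061, 0.081, 0.153, 0.163 and 0.411 CPM. Genes that low in Veh passed the filter only through the LPS libraries, so their LPS calls are descriptions. In T0+LPS, 6 of the 16 were called lower than in LPS, against 1.83% of all genes, and none higher, with a median of -0.25. The 4 largest changes among those called were in Ptgs2 (-0.68), Vcam1 (-0.52), Il1b (-0.48) and Icam1 (-0.34), genes of prostaglandin synthesis, leukocyte adhesion and cytokine signalling. The difference between this list and the members was not tested. These lists were chosen with earlier results of these data known, so their counts are descriptions.

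**Figure D5:**
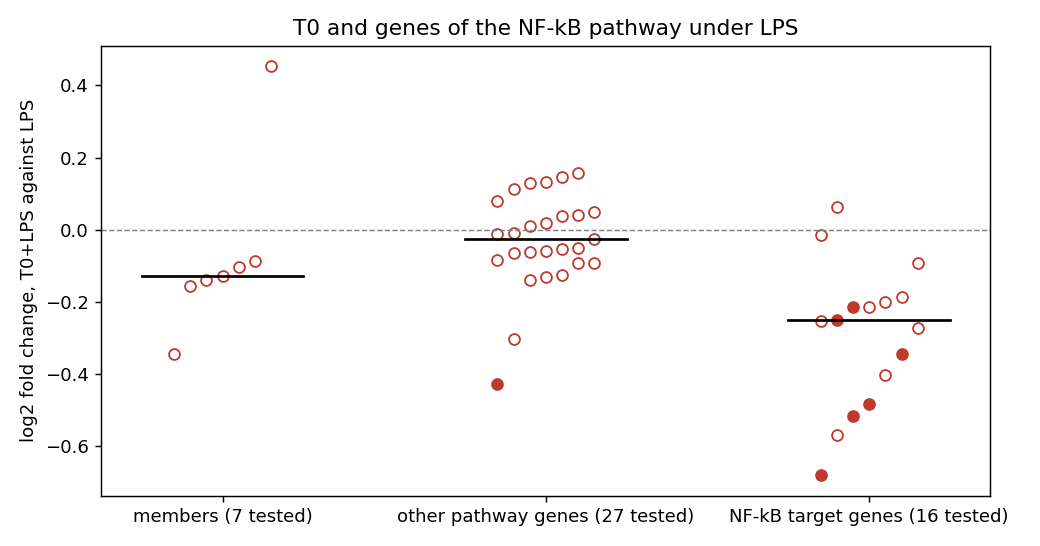
Change between LPS and T0+LPS, as log2 fold change, for each tested gene of 3 lists, with filled points for genes called at an adjusted p under 0.05, open points for the others and a black line at the median. The medians lie at -0.13 for the 7 members, -0.03 for 27 other pathway genes and -0.25 for 16 NF-κB target genes, where the filled points number 0, 1 and 6.

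Among 9262 other genes tested in both comparisons, the 5 whose level over the 9 libraries was most like the mean profile of the 7 tested members were Abhd17c, Marcks, Sh3bp4, Slc2a6 and Irg1, each with a Pearson r of 0.999. The profile was the mean of standardised log2(CPM + 1), and the libraries fall into a Veh set and an LPS-stimulated set, a step that all of these genes share. Irg1, which encodes the itaconate-producing enzyme, was at 5.35 CPM in Veh, 5690 CPM in LPS and 5583 CPM in T0+LPS. Marcks, an actin-binding substrate of protein kinase C, was at 654, 2003 and 1991 CPM, and Slc2a6, a sugar transporter of the lysosome, at 3.88, 38.0 and 37.4 CPM.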

How the data were processed

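Polyadenylated RNA of 9 BMDM libraries was sequenced. The authors trimmed adaptors with cutadapt, aligned reads with HISAT2 to mm10 and deposited featureCounts read counts per RefSeq transcript, without normalization. The authors' own comparison tables hold DESeq2 p-values and RPKM ratios for T0+LPS against LPS and a list of names for LPS against Veh, and were not used.

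Rows of one symbol were summed. Tests were made in R 4.3.3 with edgeR 4.0.16 (glmQLFit and glmQLFTest), filterByExpr at a minimum count of 10, TMM scaling and Benjamini-Hochberg adjustment at 0.05, fitted to the 6 libraries compared, and were tested on simulated data. Alternatives were DESeq2 1.42.0, limma-voom 3.58.1, other scalings and filters, the row as unit, 1 fit to 9 libraries, a replicate block and leaving out each library. CPM uses TMM factors over 9 libraries. Library totals between 13299044 and 16467983 set the precision. Members and lists were chosen with earlier results of these data known. Named were the members, pathway genes called with T0 or among the 5 largest with LPS, up to 4 target genes per list, the 5 genes most alike, and Rela. The strand setting of counting is not given in the sources used here, so antisense reads cannot be told apart. Protein sequences were not analysed here.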

Additional observations from a re-analysis of the deposited data

How the results depend on the processing

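The 7 tested members were called higher with LPS in every alternative that was run. Of these, Tnfaip3 and Nfkb2 needed the stimulated groups to pass the filter. With no filter on low counts 9 members were called, Nfkbiz (edgeR adjusted p = 0.00016) and Tnip1 (edgeR adjusted p = 0.0058) being the added calls. Nfkbiz had 0 reads in Veh and 15 in LPS. It entered this fit only through the LPS libraries, so its p is a description. Over all genes that fit called 3188 higher and 3332 lower. In LPS against Veh that fit gave smaller adjusted p-values for all 7 tested members, such as 1.8e-237 for Tnfaip3 against 9.0e-15 in the main edgeR fit. All 105 alternative values of single members in that comparison kept direction and call. Scaling by library totals alone moved the median of all genes in LPS against Veh to a log2 value of -0.28, and the genes called to 1696 higher and 5408 lower from 3148 and 2982. In T0+LPS against LPS, 101 of the members' alternative values kept their side of the threshold. No member was called higher in any alternative, and the number called lower was 0, except for 1 with no filter (Tnfaip3) and 1 with the replicate number as a block (Tnfaip3, log2 fold change -0.35, edgeR adjusted p = 0.030). Without 1 library the number called lower ranged from 0 to 1, the call being Nfkbia without LPS replicate 3 (-0.18, edgeR adjusted p = 0.029). The cause was not tested. The sources used here do not say whether same-numbered libraries were prepared together. Their deviations from the group mean correlated between -0.05 and 0.06. Such deviations also hold counting noise, so this check cannot exclude a shared preparation. The block moved the genes called with T0 to 155 higher and 230 lower from 126 and 171. Without 1 library these ranged from 59 to 167 and from 82 to 191, and with no filter they were 225 and 285. DESeq2 gave no adjusted p for Nfkb2 with T0. Depth limits Relb, Nfkbiz, Tnip1 and Nfkb2 most, since few of their bases were counted.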
